A study of Homo sapiens with 4 samples.

Results

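The genes for heterogeneous nuclear ribonucleoproteins (hnRNPs) and for core proteins of the spliceosome were followed through a microRNA pull out from human prostate carcinoma cells. Members are the protein-coding RefSeq transcripts (NM_ identifiers) whose gene symbol opens with HNRNP, with SNRP, with SF3A or SF3B and a digit, with U2AF1 or U2AF2, or with PRPF and a digit. The rule uses the symbol alone, and it gave 102 transcripts of 59 genes, out of 18798 genes with an NM_ transcript in the deposited data. Of the 59 genes, 53 had enough signal to be compared, out of 10391 such genes. By role they are 21 hnRNP genes, 8 genes of the Sm core, 3 genes of proteins specific to the U1 or U2 particle, 9 genes of the SF3A and SF3B complexes, 2 U2AF genes and 10 PRPF genes.

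Splicing removes introns from new transcripts through the spliceosome, which is built anew on each intron from small nuclear ribonucleoprotein particles (snRNPs) and many accessory proteins. Sm proteins form a ring around the small nuclear RNAs, SF3A and SF3B belong to the U2 particle that holds the branch site, U2AF finds the end of the intron, and most PRPF proteins work in the tri-snRNP or in the activated machine. The hnRNPs coat new transcripts and steer which splice sites are used, and many also act on RNA stability and export.

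DU-145, a line from a metastasis of a prostate carcinoma, was transfected with 60 nM of duplex. In the miR-28CT arm it was an untagged miR-28-5p duplex, and in the miR-28BIO arm a mix of duplexes with biotin at the 3′ end and a thiouridine at nucleotide 8 or at nucleotide 18. Cells of both arms thus carried added miR-28-5p, and after 24 h both were irradiated at 365 nm with 2 J/cm2, which links thiouridine to RNA next to it. From 15 µg of RNA, the material kept by streptavidin beads was sequenced as a stranded total RNA library with single reads of 50 bases, in 2 replicates per arm, so a miR-28CT library measures what the beads keep without a biotin tag.

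The deposited values are FPKM, fragments per kilobase of transcript, put on a common scale for the reads of a library. They come as 53209 transcript rows on hg38, where a transcript with more than 1 place in the genome has a row for each. They hold no read counts, so no counting error is given. From coverage and FPKM together, the library totals used as the FPKM scale come to 17.9 M and 13.0 M reads for the first and second miR-28CT library and to 17.3 M and 14.7 M for the first and second miR-28BIO library. The reads on the listed transcripts come to 5.92, 7.43, 5.46 and 5.76 M in the same order. The FPKM of the NM_ transcripts of a gene were summed and divided by a factor per library (1.05, 0.842, 1.05 and 1.08 in the same order), which gives the scaled FPKM used below. Genes with a mean of at least 0.5 scaled FPKM were tested as log2(scaled FPKM + 0.1), and every log2 difference is miR-28BIO minus miR-28CT. A level is what beads kept of a messenger RNA from a bulk culture, so less RNA per cell and fewer cells with it cannot be told apart, nor can either be told from weaker recovery.

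Epithelial markers were recovered in every library. All 5 epithelial genes listed (KRT8, KRT18, KRT19, EPCAM, CDH1) were above 0.5 scaled FPKM, with summed levels of 92.7 and 235 scaled FPKM in the first and second miR-28CT library and of 54.6 and 113 in miR-28BIO replicates 1 and 2. KRT19 had the highest mean of them, at 34.7, 93.1, 20.4 and 53.1 scaled FPKM. Replicate 2 was the higher library for these sums in each arm, and the miR-28BIO sum was the lower of each replicate number. The sums are mostly keratin, and KRT8, KRT18 and KRT19 each had this order. CDH1, at 0.861, 1.38, 0.938 and 1.64 scaled FPKM, was higher in miR-28BIO both times. EPCAM, at 4.99, 4.55, 3.27 and 3.89 scaled FPKM, was higher in replicate 1 of the miR-28CT arm. Among 4 leukocyte genes 3 were listed at 0, with CD14 at 0.253, 0.329, 0.0428 and 0.604 scaled FPKM. Of 4 fibroblast and endothelial genes 2 were listed at 0, and the sums were 0.151, 0.211, 0.119 and 0.122 scaled FPKM, nearly all of it COL1A1. A listed 0 is not taken as absence, since genes used by every cell, such as PRPF8, were also listed at 0. How far the difference in epithelial sums between libraries goes with the member genes was not tested.

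The members ranged from high to barely detected messenger RNAs. HNRNPH1, whose protein binds runs of guanine, had the highest mean of the tested members, 100 scaled FPKM, and ranked 145 among the 10391 tested genes. The median of the members' means was 16.5 scaled FPKM, against 4.25 over all tested genes. Summed over the 53 genes, the members came to 1270 and 1140 scaled FPKM in the first and second miR-28CT library and to 1030 and 755 scaled FPKM in miR-28BIO replicates 1 and 2. These sums are 1.18%, 0.580%, 1.12% and 0.583% of the summed level of all tested genes, so that as a share both replicates 1 lay above both replicates 2. The hnRNP genes held the largest part, with sums of 709, 461, 631 and 345 scaled FPKM, and the U2AF genes the smallest, with 15.5, 33.1, 7.14 and 18.5 scaled FPKM.

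**Figure D1:**
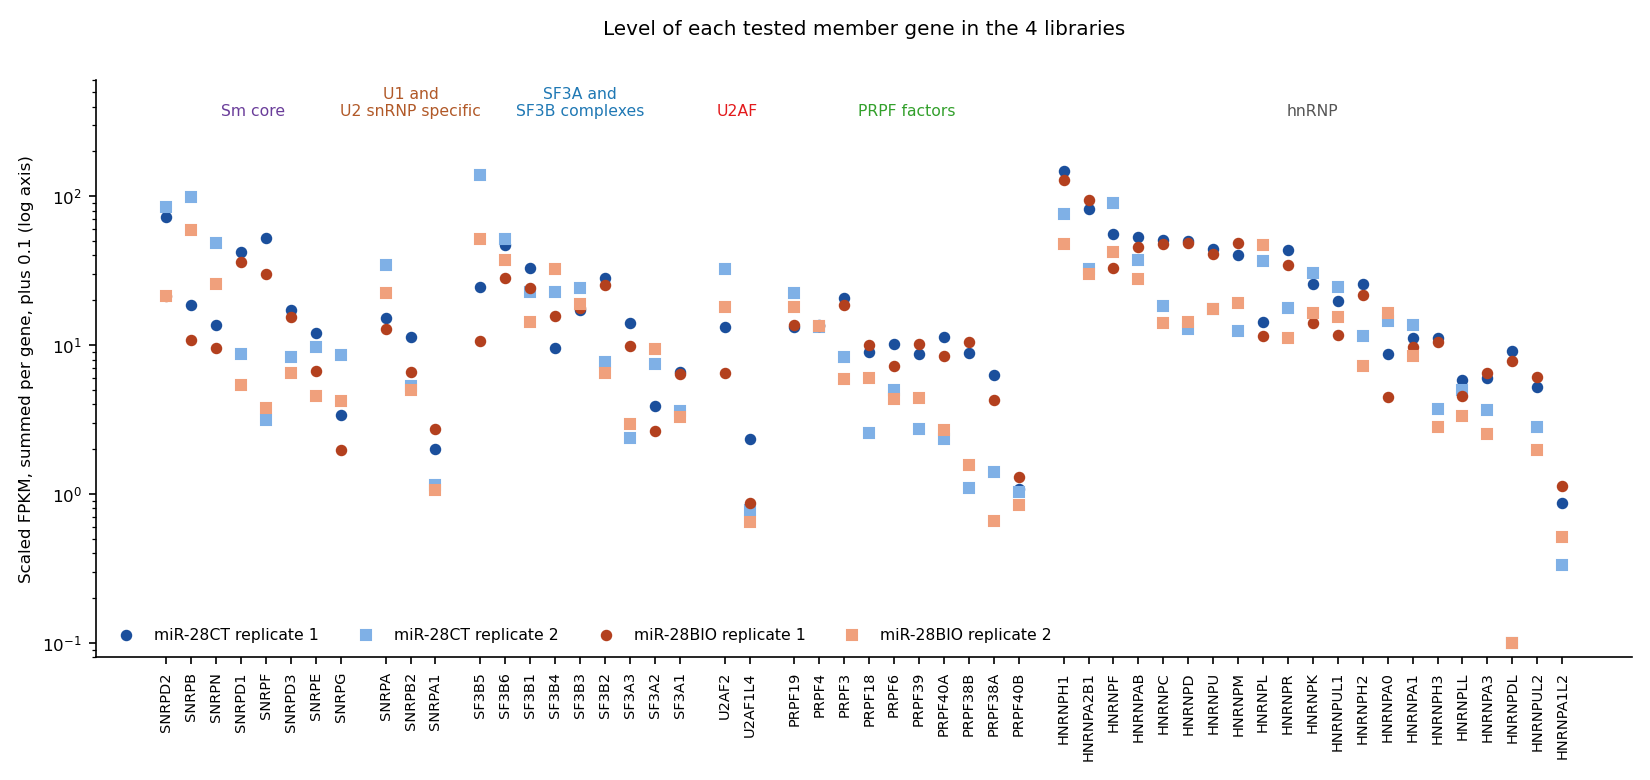
Scaled FPKM plus 0.1 (log axis) of each of the 53 tested member genes, grouped by role and ordered by mean level, with 1 point per library. Circles (replicate 1) and squares (replicate 2) are often further apart than blue (miR-28CT) and red (miR-28BIO), as in SNRPF at 52.6 and 3.02 scaled FPKM in the miR-28CT arm and 30.1 and 3.66 in the miR-28BIO arm. All 4 SNRPF values lie outside their Cufflinks intervals, described below, whose middles have a much smaller gap.

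Libraries of the same replicate number stood together and apart from the other number, and this came before any difference between the arms in size. Replicate 1 was higher than replicate 2 in both arms in 34 of 53 members (64.2%) and lower in both arms in 16 (30.2%), against 42.1% and 42.9% of all tested genes. The median difference of replicate 2 minus replicate 1 was -0.89 log2 in the miR-28CT arm and -0.74 in the miR-28BIO arm for the members, and 0.00 and 0.02 for all tested genes. On the middles of the Cufflinks intervals, described below, it was -0.25 and -0.36 log2 for the members and -0.02 and 0.08 for all genes. In absolute size the median replicate difference of the members was 1.26 and 1.34 log2 in the miR-28CT and miR-28BIO arms, while the median absolute arm difference was 0.30 in replicate 1 and 0.49 in replicate 2. In 45 of 53 members the replicates differed by more than the arms did, as they did in 7741 of the 10391 tested genes. Across the 53 members, which share their libraries and are not independent, the replicate differences of the 2 arms had a correlation of 0.95, and across all tested genes of 0.74. On FPKM, SNRPF, a subunit of the Sm ring, shows the pattern at its widest among Sm genes. All 4 of its values lay outside their Cufflinks intervals. Its scaled middles, 33.7 and 27.9 in the miR-28CT and 18.1 and 20.1 in the miR-28BIO libraries, had a much smaller gap. On these middles replicate 2 was the higher in the miR-28BIO arm. SNRPB, another subunit, shows the opposite order to SNRPF on FPKM, with replicate 2 high in both arms.

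On FPKM, the replicate difference varied with the base composition of the transcript. GC content of the canonical transcript was available for 53 of 53 tested members, and over them its rank correlation with the replicate difference was 0.45, against 0.68 over 10312 of the tested genes. Among the 26 members of lower GC content (35.1% to 44.8%), replicate 1 was higher on average in 21, and the median of replicate 2 minus replicate 1 was -1.27 log2. Among the 27 of higher GC content (45.5% to 66.5%), replicate 1 was higher in 14 and replicate 2 in 13, with a median of -0.02 log2. Interval middles were not set against GC content, and some of the widest differences rest on values with limits given elsewhere. SNRPF, at -3.54 log2, had all its FPKM outside their intervals. HNRNPDL, at -6.4 log2, had an NM_ sum listed at 0 in replicate 2 of each arm. Whether base composition caused any of this was not tested.

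**Figure D2:**
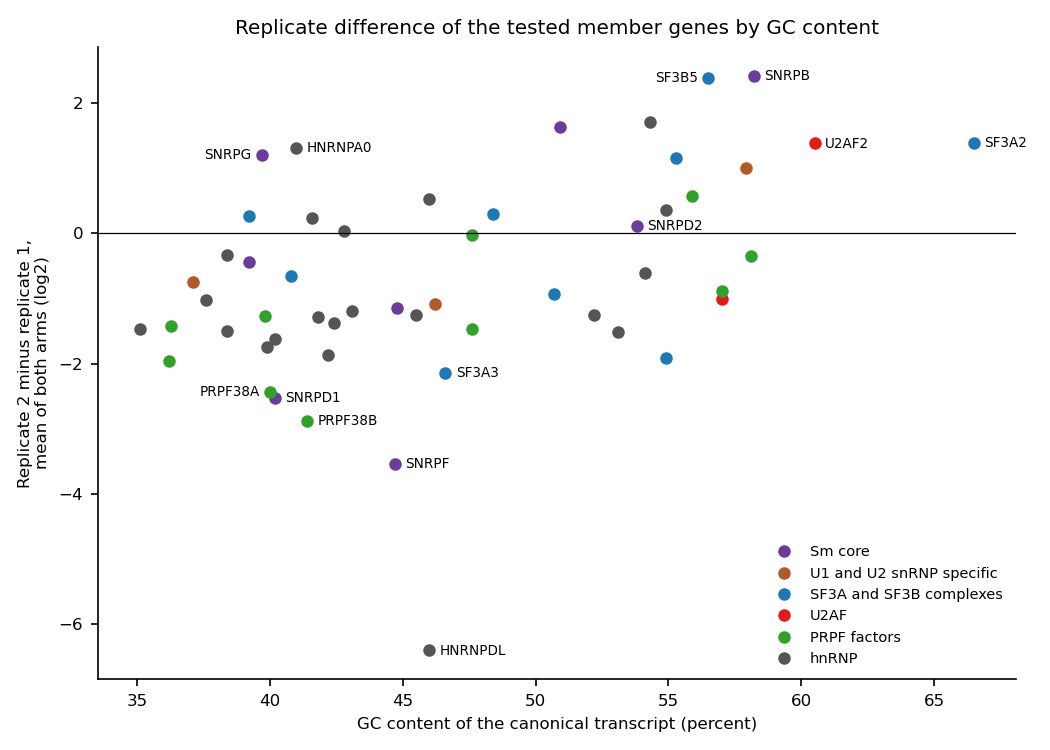
GC content of the canonical transcript (percent, horizontal) against the difference of replicate 2 minus replicate 1 (log2, mean of both arms, vertical) for the 53 tested members, coloured by role. The differences are on scaled FPKM, also where these lie outside their Cufflinks intervals, described below. Points of lower GC content lie mostly under 0, with a median of -1.27 log2 in the 26 members of lower GC content and of -0.02 in the 27 of higher GC content.

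The comparison of the arms asks which messenger RNAs beads recovered more, or less, when the added miR-28-5p carried biotin and thiouridine. Most members lay somewhat lower in the miR-28BIO libraries. In 31 of 53 members (58.5%) the miR-28BIO library was below the miR-28CT library of the same number both times, against 40.3% of all tested genes, and in 6 (11.3%) it was above both times, against 30.6%. In 8 members (15.1%) the whole miR-28BIO arm lay below the miR-28CT arm, which held for 12.9% of the tested genes, and in 0 it lay above, which held for 12.4%. The median log2 difference was -0.27 over the members and -0.09 over all tested genes, and without the scaling factors it was -0.12 and 0.08.

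No single gene passed the test on the arms alone. With limma, 0 of 53 members and 0 of 10391 genes (0.0%) passed an adjusted p of 0.05, the smallest adjusted p was 0.428, and 1 member and 317 genes had an unadjusted p under 0.05. The adjusted p of each of the 53 members was 1.00. With the replicate number as a block, 2 members, SNRPD2 and SF3B5, passed, both lower in the miR-28BIO libraries, against 512 of all tested genes (4.93%), of which 238 (2.29%) were lower. In that fit 15 members and 2903 genes had an unadjusted p under 0.05 with limma. Limma draws the SE of a gene there largely from all genes, since few libraries remain to measure its own. PRPF4, with arm differences of -0.02 and 0.01 log2 in replicates 1 and 2, still had an SE of 0.16. With 2 libraries per arm an exact permutation test of 1 gene cannot go below 0.333. The members' median depended on which libraries were used, being 0.14 log2 without miR-28CT replicate 1, -0.56 without miR-28CT replicate 2, -0.70 without miR-28BIO replicate 1 and 0.30 without miR-28BIO replicate 2. With 1 library fewer, the members with both arms apart were 11, 3, 4 and 11 higher and 16, 30, 29 and 17 lower in the same order, out of 54, 54, 52 and 54. Over all tested genes the shares were 33.8%, 27.6%, 25.2% and 31.1% higher and 37.9%, 30.7%, 27.9% and 35.6% lower.

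**Figure D3:**
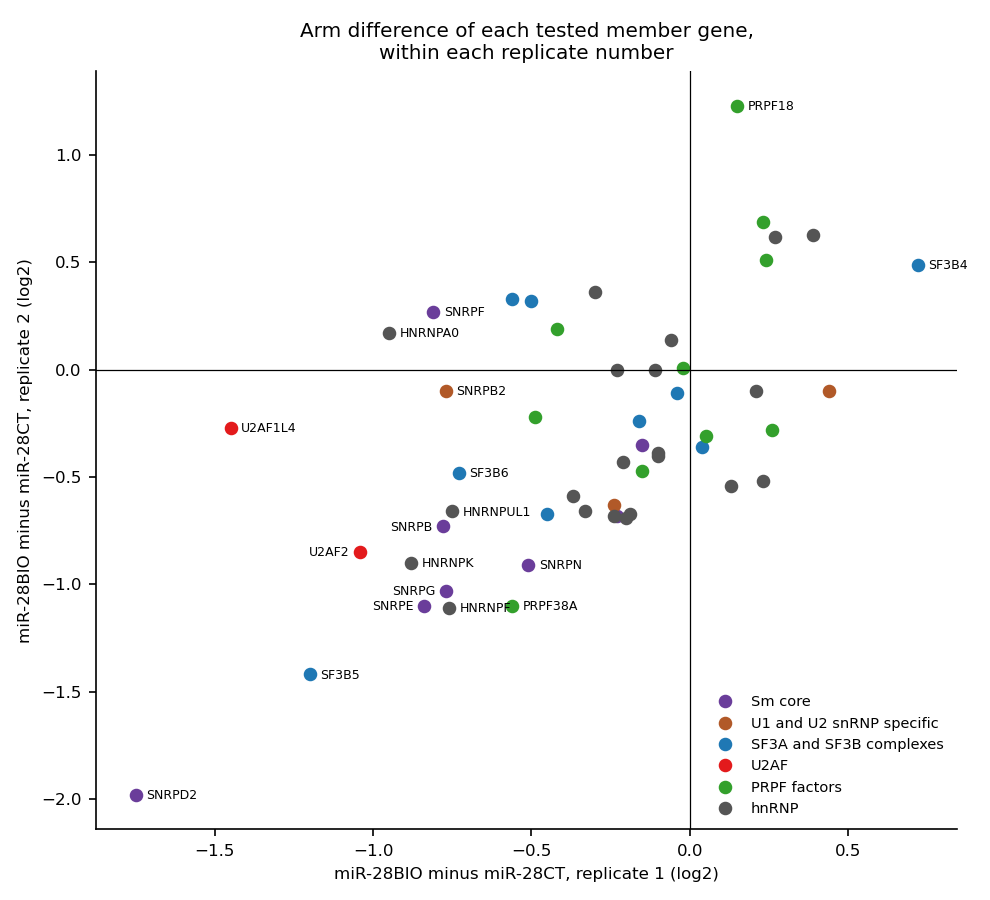
Difference between miR-28BIO and miR-28CT (log2 of scaled FPKM plus 0.1) of the 53 tested members in replicate 1 (horizontal) and in replicate 2 (vertical), coloured by role. At the lower left lie the 31 members that were lower in miR-28BIO both times, with SNRPD2 at -1.75 and -1.98, and in the upper right the 6 that were higher both times.

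Most Sm core genes lay lower in the miR-28BIO libraries. In 7 of its 8 genes (87.5%) the miR-28BIO library was below the miR-28CT library both times, against 40.3% of all genes, and in 2 (25.0%) the arms did not overlap, against 12.9%. The median log2 difference was -0.73, and -1.17, -0.93, -1.06 and -1.05 with miR-28CT 1, miR-28CT 2, miR-28BIO 1 or miR-28BIO 2 left out, where 3, 2, 2 and 3 of the 8 genes were higher. The shift was not particular to Sm genes. The 6 tested LSM genes, counted with the other pathway genes below, had a median of -0.72. With the same libraries left out it was -0.17, -0.80, -0.56 and -0.64. Of these LSM genes 4 (66.7%) were lower both times, and in 2 (33.3%) the arms lay apart with miR-28BIO the lower. SNRPD2, the gene of Sm protein D2 (chromosome 19, 45687454 to 45692185), had 72.3 and 84.5 scaled FPKM in the first and second miR-28CT library and 21.4 and 21.3 scaled FPKM in the first and second miR-28BIO library. Both miR-28CT libraries were thus well above both miR-28BIO libraries, and in this gene the replicates lay close together. An estimated 1027, 696, 291 and 254 reads stand behind these values, and all came from 1 of its 2 listed transcripts. Its log2 difference was -1.87 (SE 0.46, n = 2 per arm, limma adjusted p = 1.00), the largest negative value among the members. With the replicate block the SE was 0.17, drawn largely from all genes. Limma then gave SNRPD2 an adjusted p of 0.0338, within a range of 0.00900 to 1.00 over 17 alternatives.

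SNRPE, the gene of Sm protein E (chromosome 1, 203861612 to 203871152), had 11.9 and 9.59 scaled FPKM in the miR-28CT libraries and 6.59 and 4.42 scaled FPKM in the miR-28BIO libraries. Here too the arms stood apart, with replicate 1 the higher of each arm on FPKM. All 4 values lay outside their own Cufflinks intervals, and on the scaled middles, 8.51, 23.4, 4.28 and 8.45, replicate 2 was the higher and the arms were barely apart. The log2 difference was -0.97 (SE 0.46, n = 2 per arm), and with the block the adjusted p was 0.0611. SNRPG, the smallest ring protein, had 3.31 and 8.54 scaled FPKM in the miR-28CT libraries and 1.89 and 4.13 in the miR-28BIO libraries, so the arms overlapped although each number had its miR-28BIO library lower. SNRPD1 and SNRPD3 lay at 42.2, 8.56, 36.0 and 5.29 scaled FPKM and at 17.0, 8.19, 15.3 and 6.38 scaled FPKM in miR-28CT 1 and 2 and miR-28BIO 1 and 2. Both were high in replicates 1 and low in replicates 2, with log2 differences of -0.46 and -0.25. For SNRPD1 all 4 values were outside their intervals, and its scaled middles, 32.4, 22.9, 24.0 and 17.4, had a smaller gap between replicates. On FPKM, SNRPF was the exception of the ring, lower in miR-28BIO replicate 1 (-0.81 log2) and higher in miR-28BIO replicate 2 (0.27 log2). All 4 of its values were outside their intervals. On its scaled middles, 33.7, 27.9, 18.1 and 20.1, miR-28BIO was lower both times, with a log2 difference of -0.68.

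SNRPB, the gene of Sm proteins B and B′, and SNRPN, whose related SmN protein is made mainly in brain, code for nearly the same protein from chromosomes 20 and 15. They are shown because reads of near-identical genes can be assigned to either, and their coding sequences open as follows, in GENCODE 44 on hg38, with the 3 bases that differ in capitals.
SNRPB: atgacGgtGggcaagagCagcaagatgctg
SNRPN: atgacTgtTggcaagagTagcaagatgctg
Of the 1033 stretches of 50 bases in the SNRPB transcript, 0 also occur in the SNRPN transcript, so no read without a mismatch matches both of these transcripts. SNRPB had 18.6 and 98.4 scaled FPKM in the first and second miR-28CT library and 10.8 and 59.4 in the first and second miR-28BIO library. Replicate 2 was the high library of each arm and the arms overlapped. SNRPN had 13.5 and 48.6 scaled FPKM in the miR-28CT and 9.44 and 25.7 in the miR-28BIO libraries, the same order at a lower level. The log2 difference was -0.75 (SE 1.25, n = 2 per arm) for SNRPB and -0.71 (SE 0.90, n = 2 per arm) for SNRPN, smaller than the gap between replicates in each gene. Without miR-28CT replicate 2 the difference was 0.47 log2 for SNRPB and 0.24 for SNRPN, and without miR-28BIO replicate 1 it was 0.48 and 0.02.

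Genes of proteins specific to U1 and U2 particles numbered 3 among the tested, with a median log2 difference of -0.43. It was 0.13 log2 when miR-28CT 1 was dropped, -0.21 for miR-28CT 2, -0.50 for miR-28BIO 1 and -0.22 for miR-28BIO 2. SNRPA, a U1 protein gene, had 15.0 and 34.5 scaled FPKM in the miR-28CT and 12.7 and 22.3 in the miR-28BIO libraries, and SNRPB2, a U2 protein gene, had 11.2 and 5.24 scaled FPKM and 6.51 and 4.88 scaled FPKM. The arms overlapped in both genes, each of which was lower in miR-28BIO both times. On scaled interval middles SNRPA stood at 16.6, 17.9, 14.4 and 12.5, with arms apart. SNRPA1, another U2 protein gene, was low at 1.91, 1.05, 2.63 and 0.971 scaled FPKM, with no steady direction. SNRPC, whose U1 protein contacts the 5′ splice site, was not tested, since its NM_ transcript was listed at 0 except for 1.63 deposited FPKM in miR-28BIO replicate 1. A transcript of SNRPC with an NR_ identifier, which RefSeq gives to non-coding forms, had 30.1 and 14.8 deposited FPKM in the miR-28CT and 15.3 and 16.6 in the miR-28BIO libraries, so RNA of the gene was recovered in every library.

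The 9 genes of SF3A and SF3B divided, with 5 lower in miR-28BIO both times (55.6%, over all genes 40.3%), 1 higher both times (11.1%, over all genes 30.6%) and 3 mixed. Their median log2 difference was -0.16, or 0.01 without the scaling factors. Dropping 1 library gave -0.26 log2 (miR-28CT 1), -0.50 (miR-28CT 2), -0.40 (miR-28BIO 1) and -0.17 (miR-28BIO 2). SF3B5, a small SF3B subunit (chromosome 6, 144094881 to 144095617), had 24.4 and 139 scaled FPKM in the first and second miR-28CT library and 10.6 and 51.9 scaled FPKM in the first and second miR-28BIO library. Replicate 2 was the high library of each arm, and miR-28BIO replicate 2 was above miR-28CT replicate 1, so the arms overlapped. Its log2 difference was -1.31 (SE 1.24, n = 2 per arm, limma adjusted p = 1.00), with -1.20 in replicate 1 and -1.42 in replicate 2. The replicate block, which removes the shared replicate shift, gave an SE of 0.17, drawn largely from all genes. The limma adjusted p was 0.0452, within a range of 0.0173 to 1.00 over 17 alternatives. All 4 FPKM lay outside their own intervals, and on interval middles with the block SF3B5 did not pass, with a log2 difference of -0.92 and an adjusted p of 0.0715. Without miR-28CT replicate 2 the difference was -0.03 log2 and without miR-28BIO replicate 1 it was -0.16, while without miR-28CT replicate 1 it was -2.53 and without miR-28BIO replicate 2 it was -2.45.

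SF3B6, whose protein touches the branch site adenosine, had 46.6 and 51.7 scaled FPKM in the miR-28CT libraries and 28.1 and 37.0 in the miR-28BIO libraries. The arms did not overlap. In 3 of the 4 libraries the FPKM lay outside its interval, and the scaled middles were 43.0, 63.9, 24.0 and 41.1, with replicates further from each other and arms barely apart. Its log2 difference was -0.60 (SE 0.48, n = 2 per arm), and with the block the adjusted p was 0.120. SF3B4, which joins SF3B to RNA near the branch site, went the other way at 9.46 and 22.8 scaled FPKM in the miR-28CT and 15.7 and 32.2 in the miR-28BIO libraries. It was higher in miR-28BIO both times, by 0.72 and 0.49 log2, yet its arms overlapped, because miR-28CT replicate 2 was above miR-28BIO replicate 1. SF3B4 is a member but is outside the rule for named genes, given below. Like the other genes outside that rule, SF3B4 was described after its values were seen. SF3B1, the subunit at the branch site that is often mutated in blood cancers, had 32.8, 22.7, 24.1 and 14.2 scaled FPKM in miR-28CT 1 and 2 and miR-28BIO 1 and 2, lower in miR-28BIO both times with overlapping arms.

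Both tested U2AF genes were lower in miR-28BIO both times, with a median log2 difference of -0.90. U2AF2, whose protein binds the polypyrimidine tract, had 13.2 and 32.4 scaled FPKM in the miR-28CT libraries and 6.38 and 18.0 in the miR-28BIO libraries. The miR-28BIO library was the lower of each number, and replicate 2 was the higher of each arm, so the arms overlapped. U2AF1L4, a paralogue of the subunit that reads the AG at the intron end, was near the detection limit at 2.26, 0.686, 0.767 and 0.552 scaled FPKM, which rest on an estimated 31, 6, 10 and 6 reads. Its log2 difference of -0.86 (SE 0.78, n = 2 per arm) was carried by miR-28CT replicate 1, without which it was -0.04. U2AF1 itself was listed at 0 in all 4 libraries, in each of its 3 NM_ transcripts.

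The 10 tested PRPF genes had a median log2 difference of -0.06, which was 0.10 without the scaling factors. With 1 library left out it was 0.33 (miR-28CT 1), -0.59 (miR-28CT 2), -0.51 (miR-28BIO 1) and 0.52 (miR-28BIO 2). In 3 the miR-28BIO library was lower both times, in 3 higher both times and in 4 mixed, and the arms overlapped in all 10. PRPF38A, needed to activate the assembled spliceosome, and its relative PRPF38B were among the most library-dependent members. PRPF38A had 6.21, 1.31, 4.18 and 0.556 scaled FPKM in miR-28CT 1 and 2 and miR-28BIO 1 and 2, and PRPF38B had 8.78, 1.00, 10.4 and 1.47 scaled FPKM. On FPKM, replicate 1 was several times replicate 2 in both genes and both arms. Both replicate 2 values of PRPF38A lay under their intervals, and its scaled middles, 6.85, 3.81, 4.49 and 1.66, had a smaller gap. PRPF19, a ubiquitin ligase of the activated spliceosome, was steadier at 13.1, 22.2, 13.6 and 17.8 scaled FPKM. PRPF18, a factor of the second step, had a log2 difference of 0.69 (SE 0.78, n = 2 per arm), from 8.93 and 2.47 scaled FPKM in the miR-28CT and 9.95 and 5.94 scaled FPKM in the miR-28BIO libraries. Its arms overlapped and the difference came mainly from replicate 2, at 1.23 log2 against 0.15 in replicate 1. On scaled interval middles it had 9.10, 7.62, 8.62 and 13.8, a log2 difference of 0.39, with miR-28BIO the lower in replicate 1.

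PRPF4, a tri-snRNP protein bound to the U4 and U6 RNAs (chromosome 9, 113275634 to 113292905), combined a sum that was flat on scaled FPKM with a shift between its transcripts. Its RefSeq transcripts, NM_004697 with 2924 bases and NM_001244926 with 2921, differ by 3 coding bases where exon 1 joins exon 2. The junctions read as follows on the plus strand in hg38, with the 3 added bases in capitals.
NM_004697: cctcttccacgCAGgcaaccaaaac
NM_001244926: cctcttccacggcaaccaaaac
The longer form starts exon 2 at 113276545 and the shorter at 113276548. Summed over both, PRPF4 had 13.5 and 13.2 scaled FPKM in the miR-28CT and 13.3 and 13.3 in the miR-28BIO libraries, a log2 difference of -0.01 (SE 0.41, n = 2 per arm) whose sign changes with the scaling. The 4 libraries were thus at 1 level on this scale only. In the same order the deposited sums were 14.3, 11.1, 13.9 and 14.3 FPKM, and the scaled interval middles 15.0, 10.7, 14.9 and 13.3. NM_001244926 took 71.5% and 100% of that sum in miR-28CT replicates 1 and 2 and 0% in both miR-28BIO replicates. NM_004697 took the rest, 28.5% and 0% in the miR-28CT and 100% in both miR-28BIO libraries. As transcripts the arms therefore stood apart in opposite directions, with NM_001244926 at 9.66 and 13.2 scaled FPKM in the miR-28CT libraries and listed at 0 in the miR-28BIO libraries. The limma adjusted p of that transcript was 0.593. Only reads across this junction can separate the forms, and the number of such reads is not in the deposited values.

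The division of reads among transcripts shifted between libraries in members about as often as over all genes. Of 21 genes with at least 2 NM_ transcripts above 0, the share of the most abundant transcript differed by 50 points or more between libraries in 13 (61.9%), and in 13 another transcript led in at least 1 library. Of 4025 tested genes with such transcripts, 2395 (59.5%) and 2587 (64.3%) did so. HNRNPK, whose protein binds runs of cytosine, had NM_031263 (2943 bases) at 100% and 80.8% of its sum in the miR-28CT and 0% and 41.1% in the miR-28BIO libraries. NM_002140 (2978 bases) held the rest, so the longer form led in the miR-28BIO and the shorter in the miR-28CT libraries. HNRNPH3, a relative of HNRNPH1, had NM_012207 at 100% in 3 libraries and at 0% in miR-28CT replicate 2. U2AF1L4 had NM_144987 at 100% in the same 3 libraries and at 0% in miR-28CT replicate 2. For HNRNPA1L2 the division followed the replicate number, with NM_001011724 at 62.5% and 100% in replicate 1 and at 0% in replicate 2 of the miR-28CT and miR-28BIO arms.

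**Figure D4:**
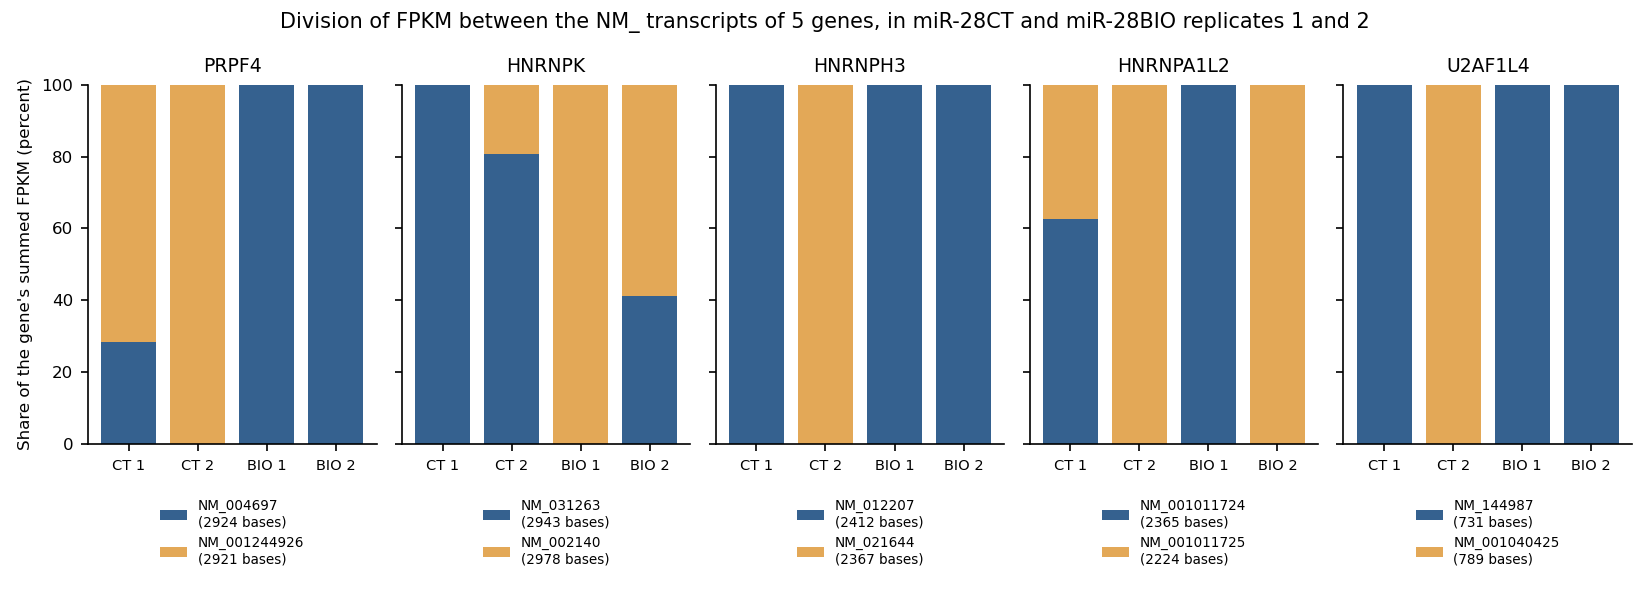
Share of each gene's summed deposited FPKM (percent) given to each NM_ transcript in miR-28CT (CT) and miR-28BIO (BIO) replicates 1 and 2, for the 5 genes whose share moved most. PRPF4 changes transcript between the arms, from 71.5% and 100% for NM_001244926 in miR-28CT to 0% in miR-28BIO, while HNRNPA1L2 divides by replicate number.

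Tested transcript by transcript, 77 members and 15636 transcripts in all could be compared, and limma called 0 of either (0.0% of all). An unadjusted p under 0.05 was found for 3 members and 559 transcripts. With the replicate block limma again called 0, with 15 members and 1875 transcripts at an unadjusted p under 0.05. The whole miR-28BIO arm lay below the miR-28CT arm in 11 members (14.3%), against 12.0% of the tested transcripts, and above it in 2 (2.6%), against 11.5%. The 2 are the PRPF4 and HNRNPK forms that took over in the miR-28BIO libraries, NM_004697 and NM_002140. Each gene's other form was among the 11, so both transcripts with higher miR-28BIO values had a counterpart at lower values in the same gene.

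The hnRNP genes had a median log2 difference of -0.25 over 21 tested genes, and its sign depended on the libraries used. It was 0.17 log2 with miR-28CT 1 left out, -0.57 with miR-28CT 2, -0.77 with miR-28BIO 1 and 0.35 with miR-28BIO 2 left out. In 12 the miR-28BIO library was lower both times, in 2 higher both times and in 7 mixed, and in 5 (23.8%) the arms lay apart with miR-28BIO the lower, against 12.9% of all tested genes. These 5 are HNRNPF, HNRNPK, HNRNPUL1, HNRNPLL and HNRNPA1. HNRNPF, which binds runs of guanine like HNRNPH1 (chromosome 10, 43385617 to 43409248), had 55.6 and 90.4 scaled FPKM in the miR-28CT and 32.7 and 42.0 in the miR-28BIO libraries. All 4 values were high for a member, replicate 2 was higher in each arm, and the arms stood apart. The log2 difference was -0.94 (SE 0.54, n = 2 per arm), and with the block the adjusted p was 0.0688.

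HNRNPK (chromosome 9, 83968083 to 83980654) had 25.7 and 30.5 scaled FPKM in the miR-28CT and 13.9 and 16.3 in the miR-28BIO libraries. The replicates were close, the arms apart, and the arm difference nearly equal in both numbers, at -0.88 and -0.90 log2. Its SE was 0.44 (n = 2 per arm), and with the block the adjusted p was 0.0601. HNRNPUL1, a relative of the nuclear scaffold protein HNRNPU, had 19.6 and 24.4 scaled FPKM in the miR-28CT and 11.6 and 15.4 in the miR-28BIO libraries. Both miR-28BIO libraries were lower, with a log2 difference of -0.70 (SE 0.45, n = 2 per arm). HNRNPLL, known as a splicing regulator in lymphocytes, had 5.77 and 4.92 scaled FPKM in the miR-28CT and 4.45 and 3.25 in the miR-28BIO libraries. The gap between the arms was narrow there, between 4.92 and 4.45 scaled FPKM. Its arms overlapped without the scaling factors, at 6.08, 4.15, 4.65 and 3.50 deposited FPKM. They also overlapped on interval middles, which were close to its FPKM but were scaled by other factors. The log2 difference was -0.48 (SE 0.43, n = 2 per arm).

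HNRNPA1, an abundant splicing repressor that shuttles to the cytoplasm, and HNRNPA1L2, a gene that resembles a processed copy of it, share sequence. Of the stretches of 50 bases in the HNRNPA1L2 transcript, 591 of 1294 (45.7%) also occur in HNRNPA1, and they are 591 of 3695 (16.0%) there. HNRNPA1 had 11.1 and 13.5 scaled FPKM in the miR-28CT and 9.61 and 8.35 in the miR-28BIO libraries, under the members' median level. Its arms stood apart by a small margin, with a log2 difference of -0.44 (SE 0.42, n = 2 per arm). HNRNPA1L2 had 0.768 and 0.234 scaled FPKM in the miR-28CT and 1.04 and 0.416 in the miR-28BIO libraries, on an estimated 34, 6, 45 and 15 reads. The miR-28BIO library was higher both times, but the arms overlapped, and the log2 difference of 0.51 (SE 0.91, n = 2 per arm) was -0.16 without miR-28CT replicate 2. How many reads of the shared stretches went to either gene is not in the deposited values.

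HNRNPH1 and HNRNPH2, which share their binding to guanine runs, lie on chromosomes 5 and X and differ in 6 of the first 30 coding bases, shown in capitals.
HNRNPH1: atgatgTtgGgcacggaaggTGgAgagggA
HNRNPH2: atgatgCtgAgcacggaaggCAgGgagggG
Only 1 of 2247 stretches of 50 bases in HNRNPH2 occurs in HNRNPH1. HNRNPH1 had 147 and 76.3 scaled FPKM in the miR-28CT and 129 and 48.0 in the miR-28BIO libraries, and HNRNPH2 had 25.5 and 11.5 scaled FPKM and 21.7 and 7.14 scaled FPKM. The order of the libraries was the same in both genes, replicate 1 high and replicate 2 low, with miR-28BIO the lower of each number. The log2 differences were -0.43 (SE 0.77, n = 2 per arm) and -0.46 (SE 0.79, n = 2 per arm), smaller than the replicate gaps. Without miR-28CT replicate 1 they were 0.08 and 0.15 log2, and without miR-28BIO replicate 2 they were 0.29 and 0.35. HNRNPH3 had the same order at 11.1, 3.63, 10.4 and 2.74 scaled FPKM in miR-28CT 1 and 2 and miR-28BIO 1 and 2, a log2 difference of -0.24, which was 0.58 without miR-28CT replicate 1 and 0.71 without miR-28BIO replicate 2. Each of these HNRNPH3 values lay outside its own Cufflinks interval. Its scaled interval middles were 8.38, 8.13, 7.02 and 7.44, with close replicates and arms that did not overlap.

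HNRNPA2B1, HNRNPC and HNRNPD differed more by replicate than by arm. HNRNPA2B1, which sorts RNAs for transport, had 82.1 and 32.3 scaled FPKM in the miR-28CT and 94.8 and 30.1 in the miR-28BIO libraries. HNRNPC, which binds runs of uridine, had 50.9 and 18.3 scaled FPKM and 47.6 and 13.9 scaled FPKM. HNRNPD, also known as AUF1 for its binding to AU-rich elements, had 50.2 and 12.8 scaled FPKM and 48.1 and 14.1 scaled FPKM. In these 3 genes both replicates 1 were high and both replicates 2 low, and the log2 differences of 0.05 (SE 0.87), -0.25 (SE 0.90) and 0.04 (SE 1.00) changed sign with the library left out. Without miR-28CT replicate 2 or miR-28BIO replicate 1 the value was -0.60 or -0.77 for HNRNPA2B1 and -0.92 or -0.84 for HNRNPD. For HNRNPC it was 0.52 without miR-28CT replicate 1 and 0.64 without miR-28BIO replicate 2. HNRNPAB, related to HNRNPD, had 52.9 and 37.4 scaled FPKM in the miR-28CT and 45.8 and 27.7 in the miR-28BIO libraries. Its miR-28BIO library was the lower both times, with overlapping arms and a log2 difference of -0.32 (SE 0.55, n = 2 per arm), which was 0.05 without miR-28BIO replicate 2. HNRNPM had 39.9, 12.3, 48.3 and 19.1 scaled FPKM, higher in miR-28BIO both times with overlapping arms and a log2 difference of 0.45 (SE 0.85). HNRNPR had 43.6, 17.6, 34.6 and 11.1 scaled FPKM, lower both times with overlapping arms and a log2 difference of -0.49 (SE 0.83). HNRNPL, which binds CA repeats, ran against the majority, with replicate 2 high in both arms at 14.1, 36.8, 11.5 and 47.3 scaled FPKM.

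The 6 untested members are HNRNPCL1, HNRNPCL2, PRPF8, PRPF31, SNRPC and U2AF1. PRPF8, at the catalytic centre of the spliceosome, PRPF31, a tri-snRNP protein, U2AF1 and HNRNPCL2 were listed at 0 in every library. HNRNPCL1, a copy-like relative of HNRNPC, had 0.190, 0.269, 0.142 and 0.0426 deposited FPKM. The members at 0 share how they are listed, since each of the 6 member transcripts with more than 1 place in the genome was at 0 in all 4 libraries, against 14 of 96 (14.6%) with 1 place. PRPF31 is listed at 10 places, and PRPF8, HNRNPCL2 and each U2AF1 transcript at 2. Over all NM_ transcripts, 1393 of 1613 (86.4%) with more than 1 place were at 0, against 14716 of 35511 (41.4%) with 1 place. A value of 0 for these members therefore goes with their listing, and whether the messenger RNA was present was not tested. HNRNPDL, a relative of HNRNPD, had an NM_ sum of 9.05 and 7.72 scaled FPKM in replicate 1 of the miR-28CT and miR-28BIO arms and was listed at 0 in replicate 2 of each. Its NR_ transcript had 6.19, 6.91, 5.14 and 10.7 deposited FPKM, present in all libraries.

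Each FPKM is deposited with the bounds of a Cufflinks interval, and in many members the value lay outside its own bounds. Interval middles are given for only some of the genes named here. The Cufflinks settings are not stated in the sources, and whether the FPKM or the interval is the better estimate was not tested. In member genes with 1 listed NM_ transcript, 53.8% and 82.6% of the FPKM above 1 lay outside these bounds in miR-28CT replicates 1 and 2 and 48.1% and 75.0% in miR-28BIO replicates 1 and 2. In genes with 2 or more, the shares were 2.63%, 2.78%, 2.56% and 2.63%. Over all NM_ transcripts the values were 34.4%, 66.6%, 41.0% and 55.7% for genes with 1 transcript and 1.83%, 5.62%, 2.43% and 4.45% for the others, so the split is one of the whole data set. SF3B2, a large SF3B subunit, had 29.7, 6.38, 26.3 and 6.90 deposited FPKM, while the middles of its intervals were 38.6, 37.4, 35.0 and 28.8 FPKM. Its deposited values thus split widely into high and low replicates, while its interval middles had a smaller gap. On scaled middles, 40.6, 35.9, 37.4 and 26.6, both replicates 1 still lay above both replicates 2. SNRPF had 55.5, 2.54, 31.5 and 3.94 deposited FPKM and interval middles of 32.0, 29.1, 16.9 and 21.8 FPKM. On the middles both of its miR-28BIO values were under both miR-28CT values.

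**Figure D5:**
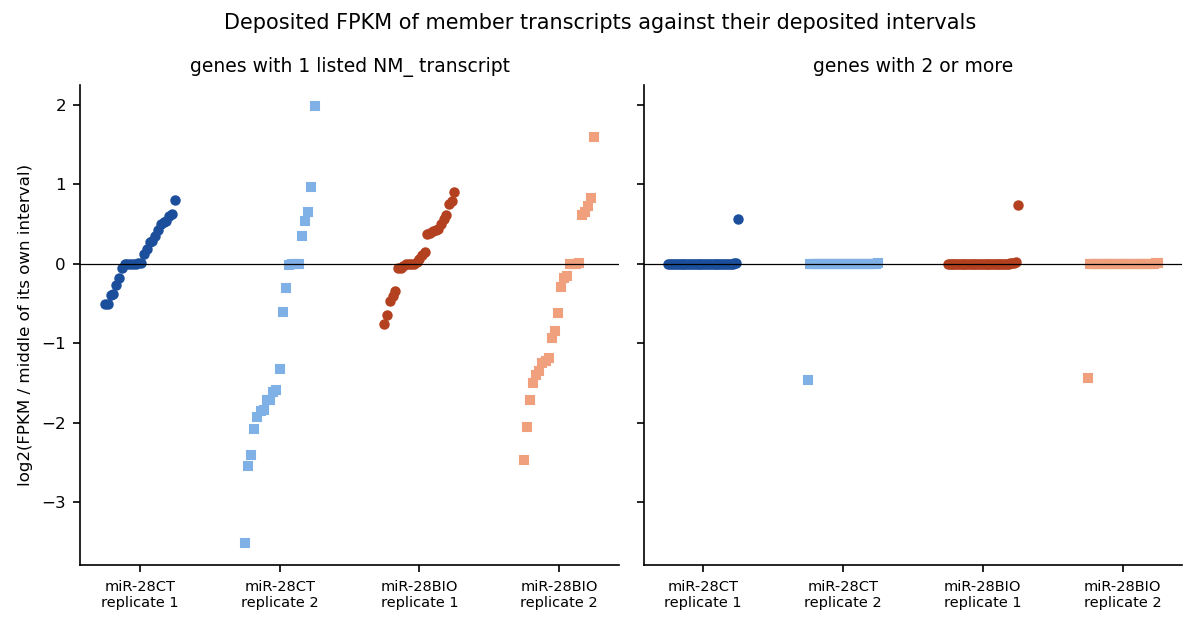
Deposited FPKM of member transcripts above 1 FPKM relative to the middle of their own interval (log2, vertical), in order of value within each library, for genes with 1 listed NM_ transcript (left) and with 2 or more (right). On the left 48.1% to 82.6% of a library's values lie outside their interval, and on the right 2.56% to 2.78%.

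With interval middles in place of FPKM, a choice made after seeing the data, the replicates of the 26 members with 1 transcript came closer. The middles had scaling factors of their own, 0.949 and 1.04 in miR-28CT 1 and 2 and 0.936 and 1.08 in miR-28BIO 1 and 2. In genes with 2 or more transcripts, 2 of 52 member transcripts lay outside their interval in any library. For most of these genes, SNRPD2 among them, a change on the middles is thus one of scaling. Their median absolute replicate difference was 1.23 and 1.36 log2 on FPKM in the miR-28CT and miR-28BIO arms and 0.49 and 0.48 on the middles. For the 27 members with 2 or more transcripts it was 1.28 and 1.25 on FPKM and 1.40 and 1.27 on the middles. On this scale the whole miR-28BIO arm was below the miR-28CT arm in 14 of 53 members, against 16.9% of the tested genes, and above it in 1 of 53, against 16.8%. The 1 is SF3B4, at 15.0 and 12.7 scaled interval middles in the miR-28CT and 29.8 and 21.0 in the miR-28BIO libraries. SF3B5 had 19.3 and 28.6 in the miR-28CT and 8.94 and 17.1 in the miR-28BIO libraries, so its arms no longer overlapped. With the block 387 of 10410 genes passed on the middles, and SNRPD2 was the 1 member of 53 among them, with an adjusted p of 0.0288, a log2 difference of -1.71 and miR-28BIO lower both times.

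When NR_ transcripts were added to the sums, a setting paired with the block after seeing the data, 54 members could be tested, and with the replicate block 7 of them passed (13.0%), against 1300 of 10483 genes (12.4%). They are SNRPD2, SNRPE, SNRPG, SF3B5, U2AF2, HNRNPF and HNRNPK. All 7 were lower in miR-28BIO, with log2 differences from -0.89 in HNRNPK to -1.87 in SNRPD2. The share of members that passed was near that of all genes. None of the 7 has an NR_ transcript in the list, so their own values were those of the NM_ sums, where 2 members passed with the block. Their SE did not shrink, at 0.17 against 0.16 for HNRNPK and 0.18 against 0.17 for SNRPD2. The added passes thus came with the other genes in the fit, not with values of their own. Of the 1300 genes, 743 were lower in the miR-28BIO libraries and 557 higher.

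Other proteins of the pathway, 66 genes of which 61 were tested, had a median log2 difference of -0.41, or -0.24 without the scaling factors. The median depended on the libraries here too, at -0.01 log2 without miR-28CT replicate 1, -0.62 without miR-28CT replicate 2, -0.65 without miR-28BIO replicate 1 and 0.08 without miR-28BIO replicate 2. With limma 0 of the 61 passed on the arms alone, where 317 of all genes had an unadjusted p under 0.05, and with the block 1 passed, SNRNP25, a protein of the minor spliceosome, against 512 of 10391 genes (4.93%). SNRNP25 had 8.79 and 10.2 scaled FPKM in the miR-28CT and 3.60 and 4.78 in the miR-28BIO libraries, a log2 difference of -1.17 with an adjusted p of 0.0474 with the block. On interval middles with the block limma called 0 of these genes and 387 of 10410 in all, where 2676 had an unadjusted p under 0.05. With NM_ and NR_ sums and the block, a pairing chosen after seeing the data, 12 of these genes passed, SNRNP25 among them. Over all genes 1300 of 10483 (12.4%) did so. In 15 of the 61 (24.6%) both miR-28BIO values lay below both miR-28CT values and in 3 (4.92%) above, while over all tested genes the shares were 12.9% and 12.4%. XAB2, a protein of the activated spliceosome, had 6.59 and 15.4 scaled FPKM and 3.48 and 4.59 scaled FPKM, lower in both miR-28BIO libraries. The 3 higher genes were CD2BP2, a U5 particle protein, DHX38, a helicase of the second step, and USP39, a tri-snRNP protein. CD2BP2 had 6.03 and 5.23 scaled FPKM in the miR-28CT and 11.1 and 9.79 in the miR-28BIO libraries, a log2 difference of 0.88. DHX38 had 5.73 and 4.35 scaled FPKM and 11.4 and 7.04 scaled FPKM, a log2 difference of 0.83, and USP39 lay within 8.60 to 10.4 scaled FPKM in all libraries. With the block, limma gave XAB2, CD2BP2 and DHX38 an adjusted p of 0.0701, 0.0634 and 0.08. These genes passed only with NM_ and NR_ sums and the block.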

How the data were processed

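The authors checked reads with FastQC 0.10.1, aligned them to hg38 with TopHat2 2.0.9 and estimated transcripts with Cufflinks 2.1.1. The deposited FPKM were used with their interval bounds, and the deposited coverage, a signal of mean read depth, served only to estimate reads. RefSeq names were found for 51673 of 53209 transcript rows (97.1%). FPKM of status OK in all 4 libraries were summed per gene, scaled by median-of-ratios factors and kept at a mean of at least 0.5. Log2(scaled FPKM + 0.1) was fitted with limma (lmFit, eBayes with a trend, two-sided, Benjamini-Hochberg over all genes, adjusted p of 0.05).

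Libraries of the same replicate number deviated together from their arm means (correlation 0.95 across members and 0.74 across all tested genes, over 2 pairs), so the replicate number as a block is given beside results it changes. A value counted as outside its interval when it was beyond the bounds by more than 0.1%.

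Named genes are the 10 of highest mean, up to 8 in each direction whose arms do not overlap, any that pass with or without the block, the 5 whose transcript share moved most and 3 near-identical pairs, in all 21. Of the other pathway genes, those named pass or are the 3 largest differences in each direction among those whose arms do not overlap. Some genes and 1 sequence of these sets are not reported here, although counts include the genes. The members and lists were chosen with earlier results of these data known. Interval middles, alone or with the block, and NR_ sums with the block were chosen after seeing the data. Coding sequences, exons and GC content came from GENCODE 44. Sites for the miR-28-5p seed were not analysed. R 4.3.3, limma 3.58.1, Python 3.11.15, numpy 2.4.6, pandas 2.3.3 and matplotlib 3.10.9 were used.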

Additional observations from a re-analysis of the deposited data

How the results depend on the processing

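Of 354 values of the 21 named genes under the alternatives, 323 kept their direction and their side of the threshold, 8 passed where they had not and 23 changed direction, 19 of these with a library left out and the other 4 in PRPF4. PRPF4 had a log2 difference of 0.16 without scaling, 0.06 with upper quartile scaling and 0.15 with interval middles, with or without the block. The causes were not tested, except that a left-out library breaks a replicate pair.

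With 1 library left out, an arm of 1 library is assumed to vary like the other arm. The log2 differences then ranged from -0.16 to 1.22 for HNRNPA1L2, -0.77 to 0.89 for HNRNPA2B1, -0.68 to 0.05 for HNRNPAB, -1.12 to 0.64 for HNRNPC, -0.92 to 1.05 for HNRNPD, -1.13 to 0.29 for HNRNPH1, -1.24 to 0.35 for HNRNPH2, -1.18 to 0.71 for HNRNPH3, -0.00 to 0.04 for PRPF4, -1.97 to 0.48 for SNRPB and -1.60 to 0.24 for SNRPN. Members with both miR-28BIO values above both miR-28CT values numbered 3 to 11, and those below 16 to 30, against 25.2% to 33.8% and 27.9% to 37.9% of all genes, since fewer libraries have to be apart. Interval middles gave 1 above and 14 below.

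With the replicate block 512 genes passed, 2 members and 1 other pathway gene among them. Interval middles with the block gave 387 genes, 1 member and 0 other pathway genes with limma (2676 genes at an unadjusted p under 0.05), and NM_ and NR_ sums with the block gave 1300 genes, 7 members and 12 other pathway genes. Limma gave 0 in each gene setting without the block, with 175 to 577 genes and 0 to 1 members at an unadjusted p under 0.05. HNRNPA1L2 and U2AF1L4 have no value at a mean of at least 2 scaled FPKM. Their means are 0.615 and 1.07 scaled FPKM.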
